A study of Mus musculus with 22 samples.

Results

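Nr2f1 (ENSMUSG00000069171) and Nr2f2 (ENSMUSG00000030551), also called COUP-TFI and COUP-TFII, were followed in single-cell RNA-seq of mouse gastruloids, cultured aggregates of embryonic stem cells that make many early embryonic cell types. They are 2 of the 32285 genes in the deposited matrices and were matched by symbol. Nr2f1 had 24673 and Nr2f2 71419 unique molecular identifiers (UMIs, one per captured transcript) in 77674 final cells. The pair was selected on its measured levels in these data, which differ between cell types and days, so their levels across types and days are a description with no test.

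COUP-TFs are orphan nuclear receptors that bind DNA repeats of the hormone receptor core site, act often as repressors through corepressors such as Ncor1, and are induced by retinoic acid in many cell types. In the embryo Nr2f2 is known for specifying venous over arterial endothelium and for its expression in mesenchyme and in the atria. Nr2f1 is known for patterning the forebrain and for its expression in the neural crest and the hindbrain, and both are expressed in paraxial mesoderm and the neural tube.

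Gastruloids were wild type, from the E14Tg2A mouse embryonic stem cell line. Aggregates were seeded at 300 cells per well, left for 48 h, and given 3 µM CHIR99021, an inhibitor of GSK3 that activates Wnt signalling. No group carried another genotype or treatment, so the groups differ in day and experiment. In MULTI-seq, which tags the cells of each gastruloid with its own lipid-anchored barcode before pooling, experiment 1 held 24 gastruloids of day 5, experiment 2 held 12 each of days 4 and 4.5, and experiment 3 held 24 of day 3 and 16 each of days 3.5, 4, 4.5 and 5. Experiment 3 was split over pools: day 3, days 3.5 and 4, and days 4.5 and 5. A difference between days of separate pools cannot be told apart from one between pools. Lanes of days 3 and 3.5 of experiment 2 were not analysed here. A further experiment without gastruloid barcodes gave a lane each of days 3 and 4. Gastruloids are the replicates, and the lanes of a pool are technical splits. All come from a single line, and the labels do not say how many separate cultures lay behind an experiment, so spreads and p-values are over gastruloids. The cell types are the 25 names in the authors' deposited table, which were assigned from the expression of these same cells.

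Of the final cells, 53730 carried the call of 1 of 136 gastruloids. Median depth was 8287 to 38443 UMIs per cell over 18 lanes and lowest in experiment 1. No pair of lanes shared more than 15 cell barcodes, 0.278% of the smaller lane. The type names were checked against marker genes, pooled over all cells of a type. Mature Somites had the highest level of all types, in CPM (the UMIs of a gene per 1000000 UMIs of the same cells), for Meox1 (418), Meox2 (33.3) and Pax3 (117). Their Tcf15 was at 663 CPM and their neural genes were low, at 0.629 CPM for Sox1 and 2.51 CPM for Pax6. Late Spinal Cord had 264 CPM of Sox2 and 37.3 CPM of Pax6, Late Neurectoderm had 124 CPM of Sox1, and Endothelium had 487 CPM of Kdr and 141 CPM of Cdh5. Head Mesoderm had 274 CPM of Twist1 and 191 CPM of Alx1. Of the markers listed for Cardiopharyngeal Mesoderm, Isl1 was at 62.4 CPM and Hand2 at 36.1 CPM, whereas Tbx5 was at 1.70 CPM.

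Both genes lie on the minus strand of mm10, Nr2f1 at chr13:78188973-78199757 and Nr2f2 at chr7:70351944-70366735 (GENCODE M21, whose identifiers match those of the files). Each overlaps the 5′ end of a long noncoding gene on the plus strand: A830082K12Rik for Nr2f1, with 123 shared exonic bases, and B130024G19Rik for Nr2f2, with 643. The stretch of 250 bases just before the start of Nr2f2, chr7:70366747-70366996 on the minus strand in RefSeq's GRCm38.p6 table, overlaps an exon of B130024G19Rik, and it is shown because the levels of the 2 transcripts went together (below). B130024G19Rik went more closely still with Nr2f1, on another chromosome, so that likeness is not particular to this locus. The stretch is 50% G and C and reads 5′ to 3′:

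Nr2f2 upstream: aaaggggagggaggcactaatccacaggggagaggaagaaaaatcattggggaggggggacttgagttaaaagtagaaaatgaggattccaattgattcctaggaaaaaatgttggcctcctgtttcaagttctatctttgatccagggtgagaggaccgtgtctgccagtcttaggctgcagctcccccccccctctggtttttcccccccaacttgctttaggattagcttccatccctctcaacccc

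The receptor core site AGGTCA, searched on both strands, was not found in this window or in the 2 windows listed for Nr2f1, and 16.3% of the 32851 promoter windows of 300 bases held it. A match or its absence in such a window is a description of the letters only.

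In whole gastruloids both genes were near the floor at day 3 and had a higher mean at each later day of experiment 3. Days 3 and 3.5 overlapped within their SD for both genes. The steps from day 3 to day 3.5 and from day 4 to day 4.5 are also steps between pools. Nr2f2 in all cells of a gastruloid averaged 0.243 ± 0.467 CPM (SD, n = 24) at day 3. It was 0.975 ± 0.806 CPM at day 3.5 (lowest 0, median 0.794, highest 2.66, n = 16) and 18.6 ± 11.9 CPM at day 4 (lowest 1.5, median 14.7, highest 39.4, n = 16). That is a 19-fold difference between group means within a pool, and 15 of 16 gastruloids of day 4 lay above the highest of day 3.5. Nr2f2 then averaged 48.5 ± 29.3 CPM at day 4.5 (lowest 19.8, median 42.6, highest 126, n = 16) and 79.6 ± 13.8 CPM at day 5 (lowest 56.7, median 78.6, highest 105, n = 16). The last step was 1.64-fold, and the ranges of days 4.5 and 5 overlapped.

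Nr2f1 followed with a smaller early step. It was 1.12 ± 0.807 CPM at day 3 (n = 24), 1.43 ± 0.948 CPM at day 3.5 (lowest 0.591, median 1.15, highest 4.05) and 4.19 ± 2.07 CPM at day 4 (lowest 1.16, median 3.86, highest 10.2). The day 4 mean was 2.93-fold that of day 3.5, with 7 of 16 gastruloids above the earlier range. At day 4.5 the mean was 18.7 ± 26.6 CPM (lowest 4.44, median 12, highest 116), where the SD exceeds the mean because of a single gastruloid described below with the neurectoderm. At day 5 it was 23.4 ± 6.68 CPM (lowest 9.45, median 22.3, highest 36.8). The day 3 lane without gastruloid barcodes, a single pooled sample, had 0.770 CPM of Nr2f1 and 0.752 CPM of Nr2f2. Their Poisson 95% intervals, for counting error only, were 0.555 to 1.04 and 0.54 to 1.02 CPM.

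Experiments 1 and 2 covered parts of this course. Day 5 gastruloids of experiment 1 had 22.6 ± 14.1 CPM of Nr2f1 (lowest 6.65, median 17.7, highest 64.6) and 65.0 ± 23.8 CPM of Nr2f2 (lowest 32.2, median 64.5, highest 126, n = 24). In experiment 2, Nr2f1 was at 3.74 ± 4.12 CPM at day 4 (lowest 0, median 1.97, highest 11.3, n = 11) and at 23.0 ± 17.2 CPM at day 4.5 (lowest 0.881, median 16.4, highest 58.6, n = 12). Nr2f2 was at 15.1 ± 15.0 CPM at day 4 (lowest 0, median 13.6, highest 46.6) and at 44.7 ± 25.9 CPM at day 4.5 (lowest 10.3, median 39.1, highest 84.5). The ranges of the 2 days overlapped for both genes, with 9 of 12 gastruloids of day 4.5 above the day 4 range for Nr2f1 and 5 of 12 for Nr2f2. In whole gastruloids, more cells of an expressing type and more RNA per cell cannot be told apart. The types below separate these in part.

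**Figure D1:**
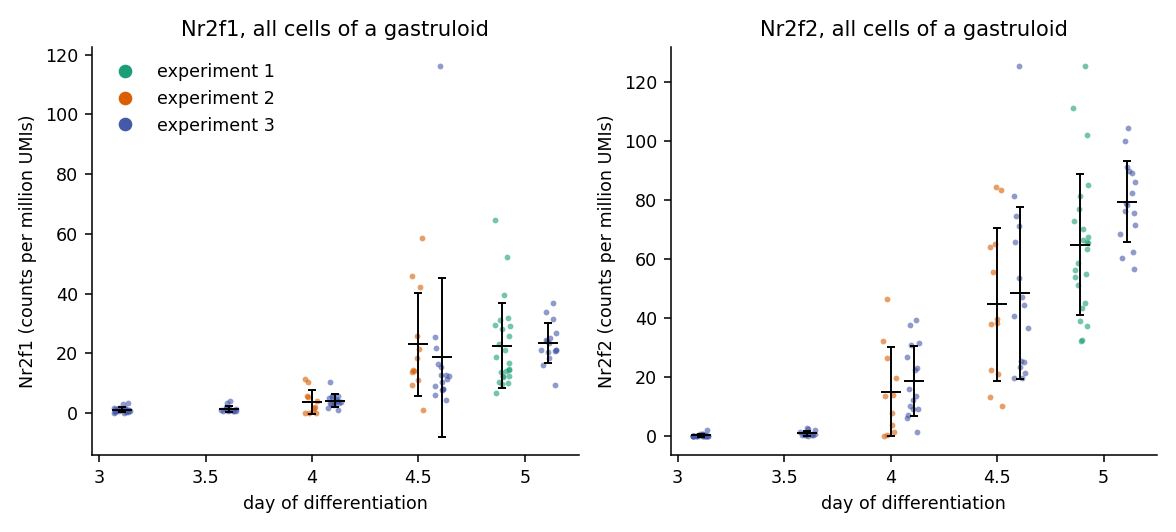
Levels of Nr2f1 and Nr2f2 in CPM (vertical axes) over all cells of a gastruloid, by day of differentiation (horizontal axes) and experiment; a point is a gastruloid and a black bar the mean ± SD of its group. In experiment 3 Nr2f2 goes from a mean of 0.975 at day 3.5 to 79.6 at day 5, and a single gastruloid of day 4.5 stands at 116 for Nr2f1.

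At day 5 Mature Somites held 48.7% to 65.7% of the UMIs of either gene and had the highest mean level among types found in at least 3 gastruloids (20 or more cells each) in both experiments that sampled that day. The rarer Late Neurectoderm is described further on. In experiment 3 Mature Somites were 28.8% of the cells and held 65.7% of the Nr2f1 UMIs and 62.2% of the Nr2f2 UMIs. In experiment 1 they were 17.7% of the cells and held 56.6% and 48.7%. The order below Mature Somites differed between the genes.

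Nr2f1 in experiment 3 at day 5 was at 55.7 ± 16.8 CPM in Mature Somites (lowest 17.1, median 59.3, highest 92.4, n = 16). Head Mesoderm followed with 33.0, 83.1, 18.4, 33.2 and 41.9 CPM in its 5 gastruloids (mean 41.9 ± 24.5), and Late Spinal Cord with 15.2 ± 7.95 CPM (lowest 4.84, median 15.7, highest 27.6, n = 8). Below these, Late Anterior presomitic mesoderm (PSM), the tissue about to form somites, had 1.56 ± 1.39 CPM (n = 12) and Somites had 1.21 ± 1.59 CPM (lowest 0, median 0.668, highest 4.71, n = 10). Neighbours in this order overlapped within their SD, apart from the step from Late Spinal Cord to Late Anterior PSM, where even the ranges were apart. Mature Endoderm, Early Spinal Cord, Late Posterior PSM and neuromesodermal progenitors (NMPs) had means of 0.538 CPM or less.

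Nr2f2 was spread over more types. In the same gastruloids it was at 186 ± 13.9 CPM in Mature Somites (lowest 169, median 181, highest 209, n = 16). Head Mesoderm had 154, 254, 161, 83.2 and 116 CPM, and Somites had 98.6 ± 17.3 CPM (lowest 61.3, median 99.7, highest 124, n = 10). Late Spinal Cord had 60.7 ± 23.0 CPM (lowest 18.1, median 63.6, highest 88.6, n = 8) and Late Anterior PSM had 55.4 ± 15.8 CPM (n = 12). These 5 neighbours overlapped within their SD, one with the next, and the range of Late Anterior PSM lay wholly above that of Late Posterior PSM, which had 14.1 ± 7.70 CPM (n = 15). Nr2f2 was lowest in Mature Endoderm (6.16 ± 7.99 CPM, n = 8), Early Spinal Cord (3.20 ± 1.61 CPM, n = 15) and NMPs (1.03 ± 0.840 CPM, n = 14).

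In experiment 1 Mature Somites again had the highest means, with 61.4 ± 31.3 CPM of Nr2f1 (lowest 14.0, median 64.7, highest 104, n = 22) and 175 ± 31.2 CPM of Nr2f2 (lowest 95.5, median 174, highest 235). Late Spinal Cord had 23.3 ± 18.8 CPM of Nr2f1 (lowest 0, median 20.9, highest 47.2, n = 12) and 73.1 ± 41.3 CPM of Nr2f2 (lowest 4.23, median 86.1, highest 124). At the low end the order differed from experiment 3 for Nr2f1: Mature Endoderm was last, at 0 in its 3 gastruloids, and NMPs came before Late Posterior PSM and Early Spinal Cord, at 0.758, 0.642 and 0.641 CPM (n = 20 each). Neighbours here overlapped within their SD, and the last 3 means rest on 10, 11 and 22 UMIs. Nr2f2 was lowest in NMPs, at 1.74 CPM.

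**Figure D2:**
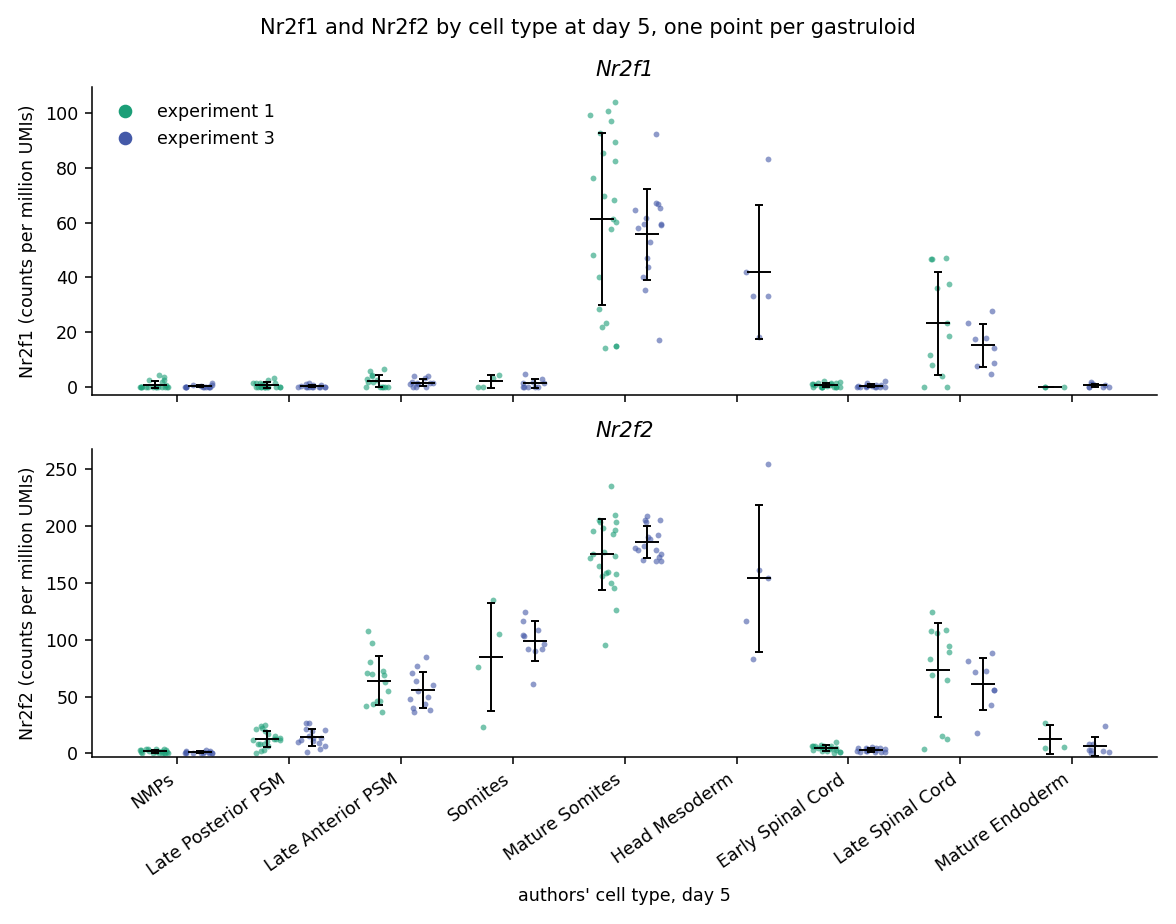
Levels of Nr2f1 (top) and Nr2f2 (bottom) in CPM (vertical axes) in each authors' cell type at day 5 (horizontal axis), with experiments 1 and 3 side by side; a point is a gastruloid with at least 20 cells of the type and a black bar the mean ± SD. Of the types drawn, Mature Somites have the highest means for both genes, and Somites are near 1 for Nr2f1 but near 99 for Nr2f2 in experiment 3.

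Along the somite lineage the 2 genes differed at day 5 in where their level stepped up. PSM cells leave the tail bud as Late Posterior PSM, pass through Late Anterior PSM, and segment into somites, which then mature. Within the same gastruloids of day 5 in experiment 3, Nr2f2 went from 15.8 CPM in Late Posterior PSM to 55.4 CPM in Late Anterior PSM, 3.50-fold and higher in 12 of 12. From Late Anterior PSM to Somites it went from 55.2 to 98.6 CPM, 1.79-fold and higher in 10 of 10. From Somites to Mature Somites it went from 98.6 to 182 CPM, 1.85-fold and higher in 10 of 10. Nr2f2 thus had a higher mean at each of the 3 steps.

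At day 5 Nr2f1 had nearly its whole difference in the last step. It was 0.339 CPM in Late Posterior PSM and 1.56 CPM in Late Anterior PSM (higher in 8 of 12), then 1.49 against 1.21 CPM in Somites (higher in 2 of 10). From Somites to Mature Somites of the same gastruloids Nr2f1 went from 1.21 to 62.7 ± 12.1 CPM, higher in 10 of 10. The ratio of these means was 51.9, but its lower side rests on 11 UMIs in 274 cells, with 5 of 10 gastruloids at 0. In experiment 1 the same step went from 1.94 CPM, which rests on 2 UMIs in 87 cells, to 78.6 CPM for Nr2f1 (higher in 4 of 4) and from 84.9 to 191 CPM for Nr2f2 (2.25-fold, 4 of 4). The 4 Somites values of experiment 1 were 0, 0, 4.39 and 3.36 CPM for Nr2f1 and 76.2, 23.6, 105 and 135 CPM for Nr2f2.

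A day earlier the last step was smaller. At day 4 in experiment 3, Nr2f1 went from 3.11 CPM in Somites to 14.8 CPM in Mature Somites of the same gastruloids (4.75-fold, higher in 7 of 7). Nr2f2 went from 66.3 to 91.1 CPM (1.37-fold, higher in 5 of 7). Nr2f1 also had a first step then, from 0.897 CPM in Late Posterior PSM to 4.38 CPM in Late Anterior PSM (4.88-fold, higher in 7 of 8). At day 4.5 that step went from 1.18 to 8.37 CPM (7.09-fold, higher in 5 of 5). Late Anterior PSM was at 4.19 ± 4.20 CPM of Nr2f1 at day 4 (n = 9), 8.37 ± 7.58 CPM at day 4.5 (n = 5) and 1.56 CPM at day 5, while its Nr2f2 stayed between 45.0 and 55.4 CPM.

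**Figure D3:**
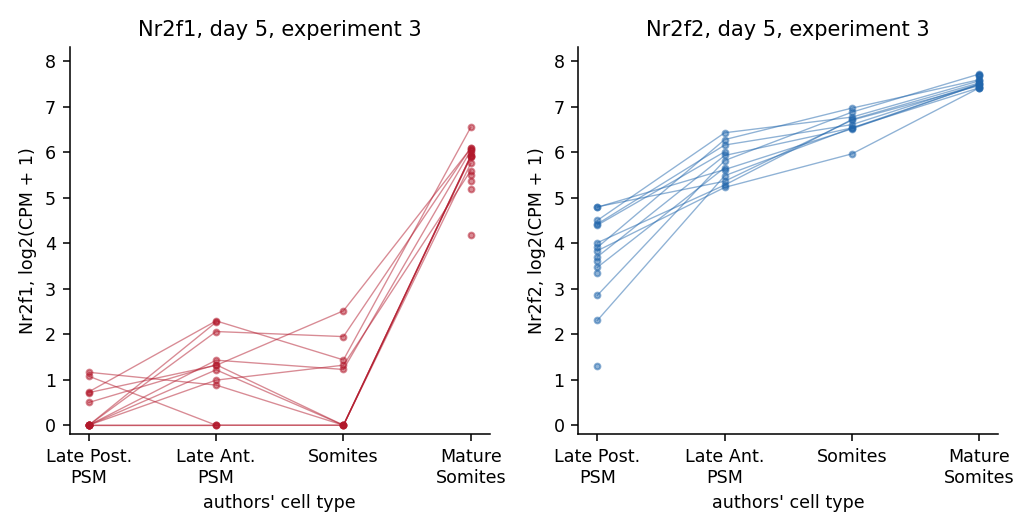
Levels as log2(CPM + 1) (vertical axes) of Nr2f1 and Nr2f2 in 4 successive cell types of the somite lineage (horizontal axes) at day 5 of experiment 3; a coloured line joins neighbouring types of a gastruloid. Nr2f2 is higher in each successive type, whereas Nr2f1 stays low up to Somites (mean 1.21 CPM) and stands at 62.7 CPM in Mature Somites of the same 10 gastruloids.

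The balance between the genes gives the same step as a share of the UMIs of both. It was taken in gastruloids with at least 10 UMIs of both together in the type. Nr2f1 made up 1.20 ± 1.45% of the UMIs of both genes in Somites of day 5 (n = 10) and 22.8 ± 5.94% in Mature Somites (lowest 9.03%, highest 35.3%, n = 16) of experiment 3. In Late Anterior PSM it was 3.10 ± 3.13%. In Mature Somites the balance was 14.2 ± 6.10% at day 4 (n = 7), 20.8 ± 4.35% at day 4.5 (n = 10) and 24.5 ± 9.77% at day 5 of experiment 1 (n = 22). Late Spinal Cord was close to Mature Somites, at 19.9 ± 5.95% (n = 8) in experiment 3 and 23.2 ± 7.94% (n = 9) in experiment 1. In experiment 1 these are the 9 of 12 gastruloids that reached the minimum of UMIs. Head Mesoderm of experiment 3 had 21.5 ± 7.51% at day 5 (n = 5) and 9.64 ± 5.43% at day 4 (n = 7). Also at day 4, Cardiopharyngeal Mesoderm had 20.5 ± 3.97% (n = 6), Early Posterior PSM 23.3 ± 8.71% (n = 12) and Somites 5.60 ± 3.32% (n = 10). A share near that of Mature Somites was thus not particular to them.

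Within Mature Somites both genes were higher at later days. In experiment 3 Nr2f1 was at 14.8 ± 6.18 CPM at day 4 (lowest 7.62, median 13.2, highest 23.4, n = 7) and at 38.2 ± 12.1 CPM at day 4.5 (lowest 15.9, median 38.9, highest 56.4, n = 10), against 55.7 CPM at day 5. The step from day 4.5 to day 5, which share a pool, was 1.46-fold, and 10 of 16 gastruloids of day 5 lay above the highest of day 4.5. Nr2f2 was at 91.1 ± 21.6 CPM at day 4 (lowest 67.1, median 80.4, highest 119), 142 ± 21 CPM at day 4.5 (lowest 103, median 143, highest 175) and 186 CPM at day 5, with a last step of 1.31-fold and 11 of 16 above the earlier range.

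Experiment 2 showed the earlier step within a pool. Its 4 gastruloids of day 4 had 13.4, 15.9, 39.3 and 14.8 CPM of Nr2f1 and 96.0, 90.4, 106 and 86.5 CPM of Nr2f2 in Mature Somites. At day 4.5, Nr2f1 was at 43.3 ± 13 CPM (lowest 29.5, median 37.4, highest 66.0, n = 7) and Nr2f2 at 141 ± 22.7 CPM (lowest 122, median 134, highest 186). The Nr2f2 ranges of the 2 days did not overlap (1.49-fold), while 1 gastruloid of day 4 lay within the later Nr2f1 range (2.08-fold between means). The day 4 lane without gastruloid barcodes, a single pooled sample, had 30.4 CPM of Nr2f1 and 126 CPM of Nr2f2 in 222 Mature Somites cells.

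**Figure D4:**
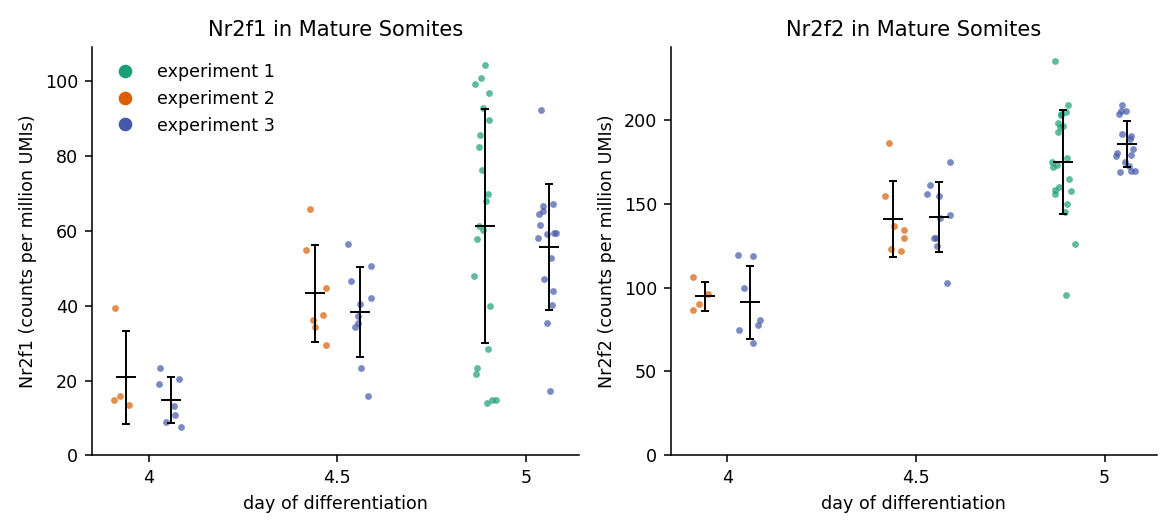
Levels of Nr2f1 and Nr2f2 in CPM (vertical axes) in Mature Somites by day of differentiation (horizontal axes) and experiment; a point is a gastruloid with at least 20 such cells and a black bar the mean ± SD. In experiment 3 the Nr2f2 means are 91.1, 142 and 186 at days 4, 4.5 and 5, and the Nr2f1 means are 14.8, 38.2 and 55.7.

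In single cells the share with a UMI of each gene was compared after thinning every cell to 5000 UMIs, which left out 189 of 9634 cells of experiment 1 and none of the others. Of Mature Somites cells of day 5 in experiment 3, 17.9 ± 5.34% had Nr2f1, 52.4 ± 4.15% had Nr2f2 and 10.9 ± 3.39% had both (n = 16). NMPs, the background here, had 0.322 ± 1.03% and 0.373 ± 0.777% (n = 14), with a median depth of 28180.5 UMIs against 24907.5 in Mature Somites. Without thinning the Mature Somites shares were 43.8% and 91.0%, and those of NMPs 0.580% and 2.94%. Experiment 1 gave 19.6 ± 9.24%, 50.8 ± 10.3% and 12.3 ± 5.71% in Mature Somites (n = 22). In Somites of experiment 3 at day 5, 31.7% of thinned cells had Nr2f2, while 0.689 ± 1.58% had Nr2f1, within the spread of NMPs. That rests on 3 cells with Nr2f1 among 322. Without thinning 2.59 ± 3.05% of these Somites cells had Nr2f1 (n = 10), against 0.580 ± 1.15% of NMPs.

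Cells with Nr2f1 had Nr2f2 more often than the other cells of their type. In Mature Somites of day 5 in experiment 3, Nr2f2 was found in 59.3% of the 614 thinned cells with Nr2f1 and in 51.2% of the rest. In experiment 1 the shares were 63.2% and 50.5%. In Late Spinal Cord they were 51.7% and 24.3% in experiment 3 and 49.3% and 26.3% in experiment 1, and in Head Mesoderm of experiment 3 they were 72.2% and 42.2%. These are pooled cells of several gastruloids, given as a description. Differences between gastruloids and co-detection within a gastruloid cannot be told apart in them.

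In the neural lineage both genes were low in Early Spinal Cord and high in Late Spinal Cord of the same gastruloids. In experiment 3 at day 5, Nr2f1 went from 0.285 to 15.2 CPM and Nr2f2 from 3.44 to 60.7 CPM (17.7-fold), each higher in 8 of 8 gastruloids. At day 4.5, Nr2f1 went from 0.407 to 14.4 CPM and Nr2f2 from 1.77 to 47.0 CPM (26.6-fold), each higher in 7 of 7. Levels were lower in experiment 2 at day 4.5, where Nr2f1 went from 0 to 6.36 CPM and Nr2f2 from 1.52 to 24.9 CPM (16.4-fold), each higher in 4 of 4. In experiment 1, Nr2f1 went from 0.542 to 21.2 CPM (higher in 9 of 11) and Nr2f2 from 5.13 to 68.5 CPM (13.4-fold, 11 of 11). Unlike in the somite lineage at day 5, both genes had a large step between the same pair of types. Set against Mature Somites of the same 8 gastruloids, Late Spinal Cord was lower in 8 of 8 for both, at 15.2 against 49.4 CPM of Nr2f1 and 60.7 against 189 CPM of Nr2f2. In experiment 1 Nr2f1 was at 18.5 ± 16.8 CPM in Late Spinal Cord against 38.5 ± 29.4 CPM in Mature Somites, lower in only 6 of 10 gastruloids with both types, and Nr2f2 at 64.5 against 156 CPM, lower in 10 of 10.

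Late Neurectoderm, the neural type with the highest Sox1, was rare and uneven between gastruloids, so its cells are given pooled, with exact Poisson 95% intervals that cover counting error only. In experiment 3 Nr2f1 was at 57.5 CPM (44.2 to 73.5) at day 3 in 40 cells, and at 21.2 CPM in 115 cells at day 3.5 and 51.9 CPM in 124 cells at day 4. It was at 199 CPM (190 to 209) in 249 cells at day 4.5 and at 187 CPM (172 to 202) in 113 cells at day 5. Nr2f2 was at 16.4, 6.63, 30.2, 169 and 94.0 CPM over the same days. At day 3 Late Neurectoderm was 0.692% of the cells and held 32.8% of the Nr2f1 UMIs. Primitive Streak held 28.1% of them from 56.8% of the cells, and Notochord 7.81% from 0.485%, which is 15 UMIs. At day 3.5 the 2 gastruloids with at least 20 such cells held 59 and 23 of the 115 and had 6.89 and 15.5 CPM of Nr2f1, both below the pooled value.

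A single gastruloid carried much of this signal at day 4.5. It held 175 of the 249 cells and had 233 CPM of Nr2f1 and 215 CPM of Nr2f2 in them, while the other gastruloid with at least 20 such cells had 63.5 and 58.6 CPM. Through it, Late Neurectoderm held 53.4% of the Nr2f1 UMIs of that day from 5.43% of the cells, and 19.4% of the Nr2f2 UMIs. The type was also high elsewhere, at 233 CPM of Nr2f1 (205 to 264) in 90 cells of experiment 1 and 195 CPM in 102 cells of experiment 2 at day 4.5. After thinning, 55.8% of its cells had Nr2f1 and 34.1% had both genes at day 4.5 in experiment 3, above the shares of Mature Somites.

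Among the other mesodermal types, Head Mesoderm went from 3.05 ± 2.19 CPM of Nr2f1 and 27.1 ± 6.36 CPM of Nr2f2 at day 4 (n = 7) to the day 5 values above, and in experiment 2 its 3 gastruloids of day 4.5 had 21.8, 13.6 and 6.01 CPM of Nr2f1 and 113, 100 and 63.5 CPM of Nr2f2. With a minimum of 10 cells these means were 23.0 ± 18.5 CPM of Nr2f1, against 13.8 CPM, and 119 CPM of Nr2f2, against 92.4 CPM (n = 5 against 3). Cardiopharyngeal Mesoderm of day 4 had 8.64 ± 3.42 CPM of Nr2f1 (lowest 2.37, median 9.81, highest 11.5, n = 6) and 33.4 ± 14.1 CPM of Nr2f2 (lowest 12.6, median 33.7, highest 53.9). With 8.89% of the cells it held 18.5% of the Nr2f1 and 14.3% of the Nr2f2 UMIs of that day. Endothelium, where Nr2f2 marks venous identity in the embryo, was pooled over 15 gastruloids of day 5 in experiment 3 and had 112 CPM of Nr2f2 (103 to 122) and 53.2 CPM of Nr2f1 (46.9 to 60.2) in 122 cells. Experiment 1 gave 122 and 46.3 CPM in 77 cells.

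The day 3.5 to day 4 step of Nr2f2 was also seen within earlier mesoderm. In Early Posterior PSM of experiment 3 Nr2f2 went from 1.63 to 9.56 CPM (5.85-fold, with 13 of 15 gastruloids above the highest of day 3.5) and Nr2f1 from 1.14 to 2.69 CPM (2.36-fold, 9 of 15). Early Anterior PSM of day 4 had 4.38 ± 2.30 CPM of Nr2f1 and 24.2 ± 9.90 CPM of Nr2f2 (n = 14). Progenitor types stayed low: Caudal Epiblast of day 4 had 0.223 CPM of Nr2f1 and 0.283 CPM of Nr2f2, and Primitive Streak of day 3 had 0.559 and 0.0354 CPM. In 58 germ cells of day 3 neither gene had a UMI, which allows up to 2.01 CPM.

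Differences between experiments at the same day and type were not used in choosing the genes and were tested with edgeR's quasi-likelihood test over all genes, with Benjamini-Hochberg adjustment. Each side is a single experiment, so experiment, culture, library and depth cannot be told apart, and the p-values and intervals are over gastruloids only. At day 5 the median depth of a lane was 8287 to 15709 UMIs per cell in experiment 1. It was 26466 to 30826 in the pool of experiment 3 that held that day. Of 18 tests of the 2 genes in 9 pairs of groups, 8 passed the filter on low counts. In Mature Somites of day 5, Nr2f2 had a log2 difference of 0.25 ± 0.05 SE (95% interval 0.15 to 0.34, adjusted p = 2.51e-05 in edgeR, higher in experiment 3), with 12 of 16 gastruloids of experiment 3 above the median of experiment 1. This call, made with TMM scaling, also held with DESeq2's size factors, but not without a normalization factor. The CPM means were 186 and 175, and with library sizes alone the log2 difference was 0.05 (adjusted p = 0.354 in edgeR), a scaling under which the median of all genes was -0.23 and 1044 genes were called higher and 5064 lower, against 2169 and 2665 with TMM. In that contrast 54.2% of all genes tested passed, 24.3% of all in this direction, so a pass is what most genes showed. Nr2f1 differed by -0.06 on the log2 scale (-0.34 to 0.22, adjusted p = 0.732 in edgeR).

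The other 6 did not pass. In Mature Somites of day 4.5, experiment 3 against experiment 2, where 30.9% of genes passed, the log2 differences were -0.11 (-0.41 to 0.18) for Nr2f1 and 0.06 (-0.10 to 0.21) for Nr2f2. In Late Spinal Cord of day 5 (47.5% of genes passed) they were -0.28 (-0.84 to 0.27) for Nr2f1 and -0.14 (-0.47 to 0.20) for Nr2f2, and with library sizes alone Nr2f2 was called lower in experiment 3 (-0.40, adjusted p = 0.0479 in edgeR, median of all genes -0.29). Nr2f2 differed by 0.31 (-0.08 to 0.71) in Late Posterior PSM of day 5 (52.4% of genes passed), and by 0.00 in Late Anterior PSM (-0.25 to 0.25, 39.9% of genes passed), where library sizes alone gave -0.19.

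Relations between gastruloids of a type and day were computed in 42 groups for Nr2f1 with Nr2f2, on log2(CPM + 10), with permutation tests. In Early Anterior PSM of day 4 in experiment 3 the genes went together (Pearson r = 0.76, permutation p = 0.00203, adjusted 0.0426; Spearman rho = 0.73, adjusted permutation p = 0.0669; n = 14), and r was 0.75 without the 2 gastruloids farthest from the median. It did not pass with any of the 4 lanes left out (adjusted permutation p = 0.0697 to 0.088) or with a minimum of 50 cells (0.0977). In Late Spinal Cord of day 5 in experiment 3, rho was 0.98 (adjusted p = 0.0083, exact permutation test) and r was 0.79 (adjusted p = 0.0924, n = 8). At day 4.5 of the same pool rho was -0.14 and r was 0.55 (adjusted permutation p = 0.938 and 0.486, n = 7). There r was -0.49 without the 2 gastruloids farthest from the median. In experiment 1 the 12 gastruloids with this type fell into separate clusters: 3 of them, with 21 to 25 such cells, had 4.23 to 15.0 CPM of Nr2f2, and the others had 64.2 to 124 CPM. No r over all of them is given, and the relation within a cluster was not tested. In Mature Somites of day 5 no relation passed, with r = 0.56 in experiment 1 (adjusted permutation p = 0.0826, n = 22) and -0.02 in experiment 3 (adjusted permutation p of 1, n = 16).

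Gastruloids of day 5 differ widely in their share of neural cells, and the level of Nr2f1 in Mature Somites was lower where that share was higher. The neural share counts the neurectoderm, spinal cord and neuron types together. In experiment 1 the 14 gastruloids with a neural share up to 37.3% had 57.7 to 104 CPM of Nr2f1 in Mature Somites, and the 8 with 42.9% to 85.8% had 14.0 to 48.1 CPM. The relation had r = -0.87 (permutation p = 1e-05, the smallest 100000 resamples can give; adjusted 0.00044 over 44 relations), rho = -0.79 (adjusted permutation p = 0.00176) and r = -0.81 without the 2 gastruloids farthest from the median share (n = 22). In experiment 3 the same relation was r = -0.54 (permutation p = 0.025, adjusted 0.157; rho = -0.33, adjusted 0.649; r = -0.43 without 2; n = 16) and did not pass.

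The relation of experiment 1 did not pass under 2 of the alternatives. Mature Somites cells per gastruloid ranged from 21 to 171 (median 71) in experiment 1 and from 55 to 338 (median 204) in experiment 3. In experiment 1 the most neural gastruloids had few of them. With at least 50 Mature Somites cells required, 14 gastruloids of experiment 1 were left and r was -0.55 (adjusted permutation p = 0.355). That minimum also left out the 5 most neural gastruloids (66.0% to 85.8%, 21 to 38 such cells), so the highest neural share was then 62.6%. Without lane 3 of its pool r was -0.67 (adjusted permutation p = 0.0521). The parts of cell number and of the narrower range in this change were not tested. Nr2f2 in Mature Somites gave r = -0.52 (adjusted permutation p = 0.102) in experiment 1 and r = 0.16 (adjusted permutation p = 0.825) in experiment 3. The summed neural markers in Mature Somites were at 13.6 to 35.4 CPM in experiment 1 and had r = -0.06 with Nr2f1 (adjusted permutation p = 0.852, n = 22). In the same cells Nr2f1 had r = 0.83 with Meox2, -0.73 with Tcf15 and 0.65 with the number of cells (adjusted permutation p = 0.00036, 0.00153 and 0.00576), and the part of these in the relation with neural share was not tested.

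**Figure D5:**
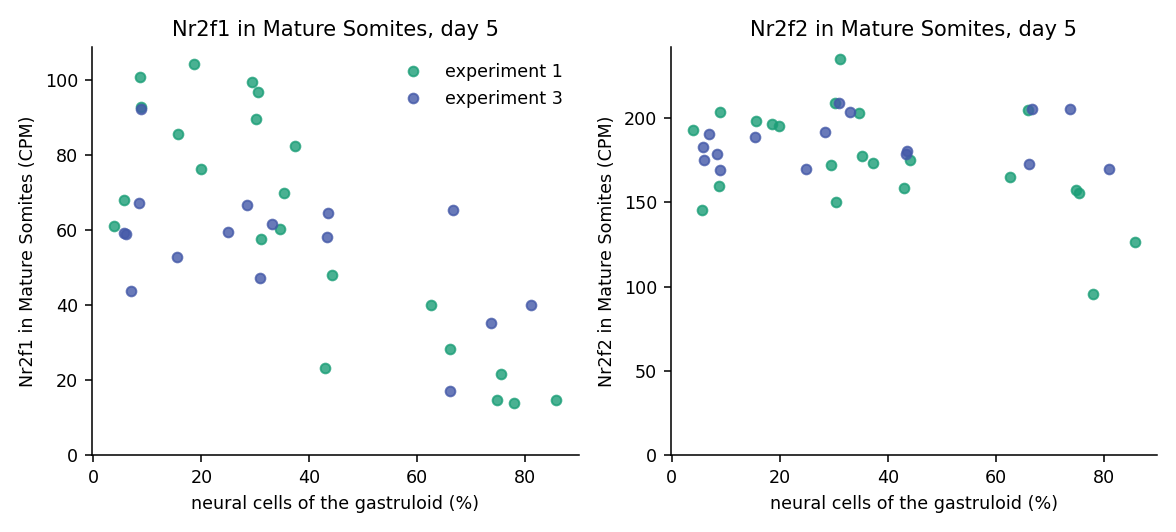
Levels of Nr2f1 and Nr2f2 in Mature Somites in CPM (vertical axes) against the percent of neural cells of the gastruloid (horizontal axes) at day 5; a point is a gastruloid, coloured by experiment. Nr2f1 of experiment 1 lies between 57.7 and 104 for shares up to 37.3% and between 14.0 and 48.1 beyond. Nr2f1 of experiment 3 lies between 43.9 and 92.4 for shares up to 43.5%. At its higher shares, 66.1%, 66.7%, 73.7% and 81.0%, it is 17.1, 65.4, 35.4 and 40.1.

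The genes whose levels followed each member were ranked over 57 groups of type, day and experiment among 7597 genes, on mean log2(CPM + 10). Apart from the 2 members, only genes with a mean of at least 10 CPM over the groups were ranked. The groups share gastruloids and libraries, so r is a description. Nr2f1 was most like Fxyd6 (r = 0.87), Sh3bp5 (0.84), Rgmb (0.83), Nr2f2 (0.83) and Fign (0.82). Nr2f2 was most like Pax3 (0.90), a somite and neural tube transcription factor, then Mn1 (0.87), Marcks (0.87), Sh3bp5 (0.86) and Ebf1 (0.86), with Nr2f1 at rank 12. Among the listed genes that were ranked, Rdh10, which makes the retinaldehyde from which retinoic acid is formed, came closest to Nr2f1 (0.69, rank 25) and was at rank 323 for Nr2f2 (0.59). Efnb2, an ephrin ligand of arterial cells and somites, came closest to Nr2f2 (0.67, rank 157). Lin28a, an RNA-binding protein of the pluripotent and early embryonic state, was near the opposite end, with -0.53 to Nr2f1 and -0.81 to Nr2f2 (rank 7595).

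The noncoding genes that overlap the starts of the members followed them too. A830082K12Rik had r = 0.97 with Nr2f1 and 0.78 with Nr2f2, and B130024G19Rik had r = 0.83 with Nr2f2 and 0.91 with Nr2f1. Both were low, at 5.38 ± 1.84 and 5.32 ± 0.763 CPM in Mature Somites of day 5 in experiment 3 (n = 16). The labels do not say whether counting used the strand, so reads of the shared exonic bases cannot be told apart.

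Other genes of the pathway were counted between days in the same pools with edgeR's quasi-likelihood test. Retinoic acid signals through synthesis enzymes, binding proteins, degrading enzymes and receptors, 19 of which were listed. From day 3.5 to day 4 in whole gastruloids of experiment 3, where 60.4% of all genes tested passed (31.1% higher, 29.2% lower), 15 of the 19 passed the filter, 5 rose and 3 fell. Their median log2 change was 0.18 against 0.0088 over all genes. Aldh1a2, the main retinoic acid synthesis enzyme of the trunk mesoderm, rose by 1.36 ± 0.49 SE and Rdh10 by 1.12 ± 0.17 SE on the log2 scale (adjusted p = 0.0175 and 1.95e-06 in edgeR). Crabp1, a cytoplasmic retinoic acid binder, rose by 2.20, Rara by 0.53 and Rxrb by 0.18. Rxrg fell by 2.36, Rarg by 1.02 and Aldh1a3 by 0.64.

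In the same step the genes listed for pluripotency and the exit from it were Pou5f1, Nanog, Nr6a1 and Lin28a among those that passed the filter. They fell in 4 of 4 cases, led by Pou5f1 (log2 change -2.62 ± 0.24 SE). Of the 8 venous and arterial genes, 7 passed the filter and 5 rose: Nrp1, Efnb2, Notch1, Hey1 and Hey2. Of these, Notch1, Hey1, Hey2 and Efnb2 are arterial or Notch pathway genes that presomitic mesoderm also expresses. Of the 6 listed COUP-TF partners, all of which passed the filter, 2 rose and 2 fell. Ncor1 rose by 0.10, and Bcl11a and Bcl11b, zinc finger proteins that bind COUP-TFs, fell by 1.07 and 1.66. Nr2f6, the third COUP-TF relative, had a log2 change of 0.13 ± 0.06 SE (adjusted p = 0.0567 in edgeR) and passed with library sizes alone. Of the other NR2 genes Nr2c1 and Nr2c2 rose by 0.15 and 0.23. Nr2f1 and Nr2f2 themselves had log2 changes of 1.51 and 4.21 in this fit, given as a description.

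Within Early Posterior PSM over the same days, where 36.9% of genes passed (1843 higher and 1867 lower, or 2766 and 1259 with library sizes alone), 12 of the 19 retinoic acid genes passed the filter, 5 rose and 2 fell. Aldh1a2 rose by 0.70, Crabp1 by 0.68, Rara by 0.65, Rdh10 by 0.61 and Rxra by 0.35 on the log2 scale, and Nr2f6 by 0.35. Rxrg and Crabp2 fell by 1.60 and 1.02.

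Within Mature Somites from day 4.5 to day 5, more of the listed retinoic acid genes fell than rose, while both members were higher. These are RNA levels, and a link between them and the members was not tested. With 14.6% of all genes called (6.94% higher, 7.66% lower), 10 of the 19 passed the filter, 6 fell and 1 rose, and their median log2 change was -0.46 against 0.0020 over all genes. Rdh10 was at 105 ± 23.1 CPM at day 4.5 and 47.8 ± 13.4 CPM at day 5, a log2 change of -1.15 ± 0.13 SE (adjusted p = 3.70e-08 in edgeR). Aldh1a2 was at 161 ± 58.4 and 80.1 ± 19.7 CPM (-0.96 ± 0.13 SE, adjusted p = 2.25e-06 in edgeR). Crabp1, Rxra and Rara fell by 1.39, 0.54 and 0.39, and Stra6, a retinol uptake receptor, rose by 0.66.

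In this type Nr2f6 rose by 0.18 ± 0.05 SE (adjusted p = 0.0178 in edgeR), against description values of 0.57 for Nr2f1 and 0.38 for Nr2f2. Lin28a and Nr6a1 fell by 0.42 and 0.34. Nrp1, a coreceptor for VEGF and semaphorins, rose by 0.81, Hey2 by 0.60 and Notch1 by 0.56, and Nrp2 fell by 0.36. Among the partners Ncor1 rose by 0.11, and the other NR2 genes did not pass.

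In Late Spinal Cord over the same days, where 7.79% of genes passed (387 higher and 386 lower, or 308 and 594 with library sizes alone), 10 of the 19 retinoic acid genes passed the filter, of which 3 rose and 1 fell. Crabp1 rose by 1.22 and Crabp2 by 0.78, while Rdh10 fell by 0.67 (adjusted p = 0.0222 in edgeR). Nr2f1 and Nr2f2 had description values of 0.22 and 0.46 there. In whole gastruloids from day 4.5 to day 5 (13.5% of genes passed, 781 higher and 874 lower, or 903 and 645 with library sizes alone), none of the 13 retinoic acid genes that passed the filter rose and 2 fell, and from day 4 to day 4.5 in experiment 2 (7.36%, 335 higher and 479 lower, or 511 and 381 with library sizes alone) 1 of 13 rose. That background depends on the lanes, with 814 genes called and 340 or 535 with a lane left out.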

How the data were processed

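Single-cell RNA-seq (10x) was measured in gastruloids of days 3 to 5. Per the submitters' processing notes, Cell Ranger 6.0.0, Seurat and mm10 were used. The deposited matrices hold UMI counts per gene and cell, and cell type, gastruloid and day came from the authors' deposited table. How its cells were chosen is not stated in those notes, and no doublet caller was run. The 2 genes and all lists were chosen with earlier results of these data known. The text names the members, every gene of the fixed lists that a sentence needs, and the 5 genes most like each member.

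Counts were summed per gastruloid (at least 30 cells) or per gastruloid and type (at least 20 cells) and given as CPM of those cells. Groups of 3 or more were described and groups of 6 or more tested. Day and experiment contrasts used edgeR 4.0.16 in R 4.3.3 (TMM, filterByExpr, quasi-likelihood, adjusted p under 0.05). Relations used log2(CPM + 10), exact permutation under 10 values and 100000 resamples otherwise, two-sided. Confidence intervals are at 95%. Alternatives were DESeq2 1.42.0 and its size factors, no filter, other cell minimums and pseudocounts, each lane left out, and other thinning depths. Library sizes alone, with no normalization factor, were added after the data were seen. Tested on simulated data, the test recovered 92.9% to 100% of 2-fold changes, over the day contrasts of whole gastruloids and the Mature Somites contrast between experiments. Only a small part of the genes was changed in these simulations, and changes below 2-fold were not simulated. They do not cover the smaller differences of the members between experiments. Lanes without gastruloid calls, the 2 of days 3 and 4 and pool C of experiment 2, entered no test, and lanes of days 3 and 3.5 of experiment 2 were not used here. Some listed genes are not reported here.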

Additional observations from a re-analysis of the deposited data

Results flagged for a closer look

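Groups of 4 to 10 gastruloids were checked, for each gene apart, for a gastruloid far above or below the others. Of 56 such checks, each of 1 gene in 1 group, 11 flagged a value. The cut-off is set to flag about 1 in 20 by chance. Most flagged values rested on few UMIs, where that rate need not hold, so no excess over chance was read from the count. Each flagged value was a high one. In 4 cases it rested on enough UMIs to read a level. Nr2f1 in Mature Somites of day 4 in experiment 2 was at 39.3 CPM in 1 of 4 gastruloids (51 UMIs in 47 cells), with the next at 15.9 CPM. Nr2f1 in Late Spinal Cord of day 4.5 in experiment 3 was at 29.99 CPM (149 UMIs in 141 cells), with the next of 7 at 13.3 CPM. Nr2f1 in Late Anterior PSM of day 4 was at 14.7 CPM (24 UMIs in 43 cells), with the next of 9 at 5.93 CPM. Nr2f2 in Mature Endoderm of day 5 was at 24.5 CPM (124 UMIs in 101 cells), with the next of 8 at 8.05 CPM.

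The other 7 rested on 1 to 4 UMIs, in types where the gene was near 0. They were Nr2f2 in Caudal Neurectoderm (1.22 CPM) and Nr2f1 in Early Neurectoderm (3.07 CPM) of day 3.5, Nr2f1 in Early Spinal Cord of day 4.5 in experiment 2 (0.516 CPM), and Nr2f1 in Notochord of day 4 (2.60 CPM). In NMPs they were Nr2f1 (1.19 CPM) and Nr2f2 (1.24 CPM) at day 4 and Nr2f1 at day 4.5 (1.23 CPM).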

How the results depend on the processing

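No paired analysis was possible between days or between experiments because the gastruloids of different groups share no numbers, and lane numbers and letters name technical splits of a pool. The levels of the members by type and day kept within their SD under other cell minimums, per-cell means, trimmed depth and each lane left out where the text leads with them. Levels in 3 other groups moved with a minimum of 10 cells: Head Mesoderm of day 4.5 and Late Posterior PSM of day 4 in experiment 2, and Early Spinal Cord of day 4 in experiment 3. The higher Nr2f2 of experiment 3 in Mature Somites of day 5 held under another test, size factors, filter, cell minimums and lanes left out (log2 difference 0.17 to 0.30), but with library sizes alone, chosen after seeing the data, it was 0.053 and not called (adjusted p over all alternatives 5.4e-07 to 0.354). With library sizes alone Nr2f2 in Late Spinal Cord of day 5 passed at -0.40, and in Late Anterior PSM it was -0.19. Near 0, signs turned: Nr2f1 in Mature Somites of day 5 was 0.025 with DESeq2, Nr2f1 at day 4.5 ranged from -0.29 to 0.031 with lanes left out, and Nr2f2 in Late Anterior PSM was -0.0094 with DESeq2, -0.049 with a minimum of 10 cells, and -0.11 to 0.15 with lanes left out. In experiment 2 the genes called between days 4 and 4.5 in whole gastruloids numbered 814, and 340 and 535 with a lane left out.

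Relations moved more. In Early Anterior PSM r was 0.67 with a minimum of 50 cells (adjusted permutation p = 0.0977) and 0.67 to 0.73 with lanes left out, none of which passed. In Late Spinal Cord of day 5 in experiment 3 r was 0.68 to 0.87, passing without lane A. For Nr2f1 and neural share in Mature Somites r was -0.55 with a minimum of 50 cells and -0.79 to -0.67 with lanes left out in experiment 1, and -0.64 to -0.41 in experiment 3, passing without lane A (adjusted permutation p = 0.0498). For Nr2f1 with Nr2f2 in Mature Somites of day 5 a pseudocount of 1 gave 0.58 in experiment 1 (adjusted permutation p = 0.0487). Lanes left out gave 0.30 to 0.59 there, none of which passed, and the lowest r under the other settings was 0.39. In experiment 3 a pseudocount of 1 gave 0.0022, and lanes left out gave -0.14 to 0.26. The share of Mature Somites cells with both genes was 4.17% at 2500 UMIs and 23.6% at 10000, as fewer or more UMIs are kept. The cause of the other changes was not tested. Depth limits the low types, where a mean rests on a few UMIs.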

Other observations

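After these values had been seen, the levels of Nr2f1 and Nr2f2 in Mature Somites of day 5 were set against other measures of the same cells, in 36 relations adjusted together. Gastruloids with more Nr2f1 had more Meox2, a homeobox gene of somites, with r = 0.83 in experiment 1 (adjusted permutation p = 0.00036, rho = 0.87, r = 0.79 without the 2 farthest gastruloids, n = 22). In experiment 3 r was 0.78 (adjusted permutation p = 0.0054), but rho was 0.48 (adjusted permutation p = 0.193) and r was 0.49 without the 2 farthest (n = 16). Gastruloids with more Nr2f1 had less Tcf15, a transcription factor needed for somites to become epithelial. Here r was -0.73 in experiment 1 (adjusted permutation p = 0.00153, rho = -0.78) and -0.78 in experiment 3 (adjusted permutation p = 0.00153, rho = -0.71), and -0.81 and -0.63 without the 2 farthest. The other somite measures gave r = 0.48 and -0.26 for Nr2f1 with Meox1 (adjusted permutation p = 0.0795 and 0.519) and -0.31 and -0.38 with Pax3 (0.337 and 0.326), in experiments 1 and 3. With the sum of the somite markers Meox1, Tcf15, Meox2 and Pax3 r was -0.31 in experiment 1 (adjusted permutation p = 0.337) and -0.76 in experiment 3 (0.00153).

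Nr2f2 also had more Meox2 beside it in experiment 1 (r = 0.59, adjusted permutation p = 0.0276; rho = 0.47, adjusted permutation p = 0.12), with r = 0.13 in experiment 3 (adjusted permutation p = 0.783). Nr2f2 gave r = -0.21 and 0.24 with Tcf15 (adjusted permutation p = 0.555 in both). Nr2f2 with Meox1 gave r = 0.66 in experiment 1 (adjusted permutation p = 0.0054) and 0.28 in experiment 3 (0.514). With Pax3 it gave r = -0.13 in experiment 1 (adjusted permutation p = 0.783) and 0.61 in experiment 3 (0.0276), where rho was 0.61 (adjusted permutation p = 0.0585). Nr2f1 also went with the number of Mature Somites cells of the gastruloid (r = 0.65 and 0.72, adjusted permutation p = 0.00576 and 0.00977; rho = 0.53 and 0.65, adjusted permutation p = 0.0585 and 0.0444). Without the 2 farthest gastruloids r was 0.53 and 0.67, and the part of cell number in the relations above was not tested.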
